A study of Mus musculus with 2 samples.

Results

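The cells described here are bone marrow cells with many transcripts of Cd34, few of the genes that mark haematopoietic stem cells (HSCs), and few of Fos, an immediate early transcription factor. They were picked from single-cell RNA counts, cell by cell, as cells with at least 2 unique molecular identifiers (UMIs, counted once for every transcript caught) of Cd34, fewer than 5 over 8 HSC genes (Procr, Mecom, Hlf, Mllt3, Fgd5, Ctnnal1, Slamf1, Hoxb5) and fewer than 5 of Fos. They also had no UMI of the lymphoid gene Dntt, fewer than 5 over the megakaryocyte genes Pf4, Itga2b, Cavin2 and Gp9, at most 3 over the B-lineage genes Cd79a and Vpreb3, fewer than 20 over the granule enzyme genes Mpo, Elane, Prtn3 and Ctsg, and fewer than 3 of Rsad2. In all, 1068 of 11214 kept cells passed, 478 of 4839 in the Listeria library and 590 of 6375 in the naive library. That was 9.88% of the Listeria library (95% exact interval 9.05 to 10.8) and 9.25% of the naive library (8.55 to 9.99). Because those transcripts chose the cells, their levels below are descriptions.

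The study set blood stem cells of mice with a past infection against those of uninfected mice. The Listeria library came from wild-type C57BL/6J mice whose marrow was taken 6 weeks after a challenge with Listeria monocytogenes, a bacterium, and the naive library from wild-type C57BL/6J mice that were not treated. Mice of both groups were given as 6 to 8 weeks old, without saying whether at challenge or at sampling. Each group has 1 library, the number of mice pooled and the surface markers used to purify the cells are not given in the sources used here, and no difference has a replicate check. The deposited files name the Listeria library KO and the naive library WT, whereas the labels give no knockout. The groups here follow the labels, and every Listeria over naive direction rests on them. All intervals below are 95% intervals for counting error only, and all differences compare these 2 libraries, not the conditions.

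Multipotent progenitors lie just below HSCs in blood formation: they still give rise to several lineages but have largely lost long-term self-renewal. In the mouse, Cd34 is low or absent on the most quiescent adult HSCs and rises as cells leave that state. Immediate early genes such as Fos, Jun and Egr1 are switched on within minutes of a stimulus, among them the handling of cells after the marrow is taken, and their products are mostly short-lived transcription factors and feedback inhibitors.

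The label of multipotent progenitors was checked against Cd34, Ctla2a, Myct1 and Adgrl4. Ctla2a, which encodes a protease inhibitor-like protein, was at 5252 CPM (UMIs of the gene per 1e+06 UMIs of the set of cells) in members of the Listeria library and 5439 CPM in members of the naive library. Myct1 was at 215 and 237 CPM, and the adhesion receptor gene Adgrl4 at 396 and 381 CPM. HSC-marker-high cells, defined with the same limits but 5 or more UMIs of the HSC genes and no limit on Cd34, held nearly the same: summed over these 4 genes, members had 6295 CPM in the Listeria library and 6505 in the naive library, against 6227 and 5487 CPM in HSC-marker-high cells. Cd34 is a gate gene, so its level is fixed in part by the rule, and the other 3 markers had similar levels in members and HSC-marker-high cells. Below the cells are called Cd34-high Fos-low cells.

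The Listeria library held 43895966 UMIs and the naive library 64619150, and members had a median of 7328 and 6763.5 UMIs. The libraries shared 14 kept cell barcodes. The levels of genes of other cell types varied. The endothelial gene Cdh5 had no UMI in 478 Listeria and 590 naive members, which by the limit of 3 counts of the total allows shares of up to 0.628% and 0.508% of cells with a UMI, and 12 B-lineage genes, of which the gate capped Cd79a and Vpreb3, summed to 16.5 and 58.2 CPM, against 947 and 2580 CPM in all other kept cells. Megakaryocyte genes, some of them capped too, summed to 505 and 535 CPM in members and 742 and 586 CPM in the other cells, and erythroid genes to 536 and 655 CPM in members and 1052 and 1140 CPM in the others. Endothelial genes, some shared with stem cells, were at 242 and 281 CPM in members, much as in the other cells with 247 and 248 CPM. Stroma genes were higher in members, 18.7 and 19.8 against 9.96 and 9.60 CPM. Basophil and mast genes had 131 and 169 against 162 and 169 CPM. T and NK genes had 132 and 146 against 199 and 268 CPM, and monocyte and macrophage genes 155 and 205 against 441 and 459. Dendritic genes had 202 and 284 against 481 and 647 CPM, and plasma cell genes 255 and 213 against 805 and 929. The part of these transcripts in the results was not tested. Neutrophil genes were an exception that rested on a single cell in each library. That cell held 84.0% of the 1993 neutrophil-gene UMIs of Listeria members and 89.4% of the 4123 of naive members, while the next cell held 58 and 15 UMIs. Without it the 9 neutrophil genes summed to 86.4 and 108 CPM, against 539 and 1008 CPM with it.

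Within the gate, 183 Listeria and 252 naive members had exactly 2 Cd34 UMIs and the highest had 11 and 10. Of the cells just outside, with 1 Cd34 UMI, 363 were in the Listeria and 380 in the naive library. Mpo was at 113 and 68.9 CPM in cells just inside, against 56.2 and 50.5 CPM in cells just outside. Meg3, a maternally expressed non-coding RNA of HSCs, was at 4.56 and 8.39 CPM just inside and 13.2 and 30.0 CPM just outside. In members, 317 of the Listeria library had no Fos UMI, which is 66.3%, and 278 of the naive library, 47.1%.

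Set against HSC-marker-high Fos-low cells (816 in the Listeria and 1015 in the naive library), Cd34-high Fos-low cells had more transcripts of Plac8, Nkg7 and Tyrobp and far fewer of Meg3, Cxcl2 and Mmrn1. The measured genes were the 5514 that reached 20 CPM in one or the other set of cells in both libraries. Of these, 39 were over 1.5-fold higher in members in both libraries (0.707%) and 131 over 1.5-fold lower (2.38%). The sets were drawn from the same counts, so this is a description without a test.

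Plac8, a gene of myeloid and lymphoid progenitors, was at 641 and 703 CPM in members and 274 and 243 CPM in HSC-marker-high cells. Nkg7, a granule membrane gene of cytotoxic cells that is also read in early myeloid progenitors, had log2 ratios of 1.41 and 1.35. Tyrobp, the adaptor of many activating immune receptors, had 1.59 and 1.06. The G protein-coupled receptor gene Adgrg3 had 1.38 and 1.66, and Tespa1, which encodes a signalling protein of T cell development, 1.16 and 1.54. Lat2, Serpinb1a, Slc22a3 and Fam117a were also among the 10 highest, with log2 ratios between 0.95 and 1.32. Cd48, a surface protein used to separate multipotent progenitors from HSCs, was at 22.7 and 23.5 CPM in members and 8.32 and 5.98 CPM in HSC-marker-high cells.

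Granule enzyme genes were limited by the gate but stayed uneven. Mpo, the myeloperoxidase gene, was at 154 and 90.3 CPM in members and 36.9 and 16.3 CPM in HSC-marker-high cells. After each cell was thinned to 2500 UMIs, 24.5% of Listeria members (20.7 to 28.6) and 15.9% of naive members (13.1 to 19.1) had an Mpo UMI. The share was 0.95% and 0.967% in B-lineage cells, whose median depths were 10019 and 9445 UMIs. In Fos-high cells, which met every other limit but had 5 or more Fos UMIs, it was 21.6% and 16.8%, much as in members. Mpo-positive members had Plac8 more often than the others, 85.5% against 63.2% in the Listeria library and 87.2% against 65.7% in the naive library. Flt3, a receptor gene of lymphoid-primed progenitors, was at 57.6 and 93.9 CPM in members, against 41.9 and 56.5 CPM in HSC-marker-high cells. A UMI of Flt3 was read in 13.6% of Listeria members and 21.0% of naive members, and in 4.51% and 6.77% of B-lineage cells.

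Meg3 was the lowest gene relative to HSC-marker-high cells. It was at 2.97 CPM in members of the Listeria library and 8.32 CPM in those of the naive library, against 86.0 and 145 CPM in HSC-marker-high cells, which is a log2 ratio of -4.85 (-5.86 to -4.00) and -4.13 (-4.66 to -3.63). Other imprinted genes were lower too. The cyclin-dependent kinase inhibitor gene Cdkn1c, a brake on HSC division, had log2 ratios of -1.33 and -1.74, and the adaptor gene Grb10 had -1.24 and -2.16. Of 5 imprinted genes measured, 3 were lower in both libraries and none was higher. The chemokine gene Cxcl2 was at 58.9 and 64.3 CPM in members, against 275 and 314 CPM in HSC-marker-high cells. Mmrn1, a platelet and endothelial matrix gene, had -1.80 and -1.43. Hes1, a target of Notch signalling, had -1.66 and -1.33. Pdzk1ip1, Itsn1, H2-Aa, Arhgef12, Cebpb and Maff completed the 10 lowest, with Pdzk1ip1 at -1.39 and -1.21 and Cebpb at -1.03 and -1.02.

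In most lists, though not in the imprinted and MHC class II genes, most members stayed within the limit. Of 6 MHC class II genes measured, 3 were lower in members in both libraries and 1 was higher. Of 39 immediate early genes measured, 9 were lower in members and none higher in both libraries, with Nr4a2 at -1.15 and -0.88 and Atf3, which encodes a stress-induced factor of the ATF family, at -0.98 and -1.14. Stem and progenitor transcription factors had 6 of 32 lower, among them Nkx2-3 (-1.37 and -0.80), Hoxa5 (-1.12 and -1.48) and Prdm16 (-1.07 and -0.89), and 1 higher, with a median of -0.0097. Lymphoid priming genes had 1 of 12 higher and none lower. Myeloid priming genes had 2 of 8 higher, Plac8 and Nkg7. Type I interferon response genes had 4 of 15 lower, such as Ifitm1 at -0.77 and -0.90. Among DNA replication genes, the helicase subunit gene Mcm5 was higher, at 0.72 and 0.84, and no other of 21 measured passed in both libraries. The kinase gene Cdk6, which speeds exit from quiescence, was at 484 and 403 CPM in members and 288 and 204 CPM in HSC-marker-high cells.

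**Figure D1:**
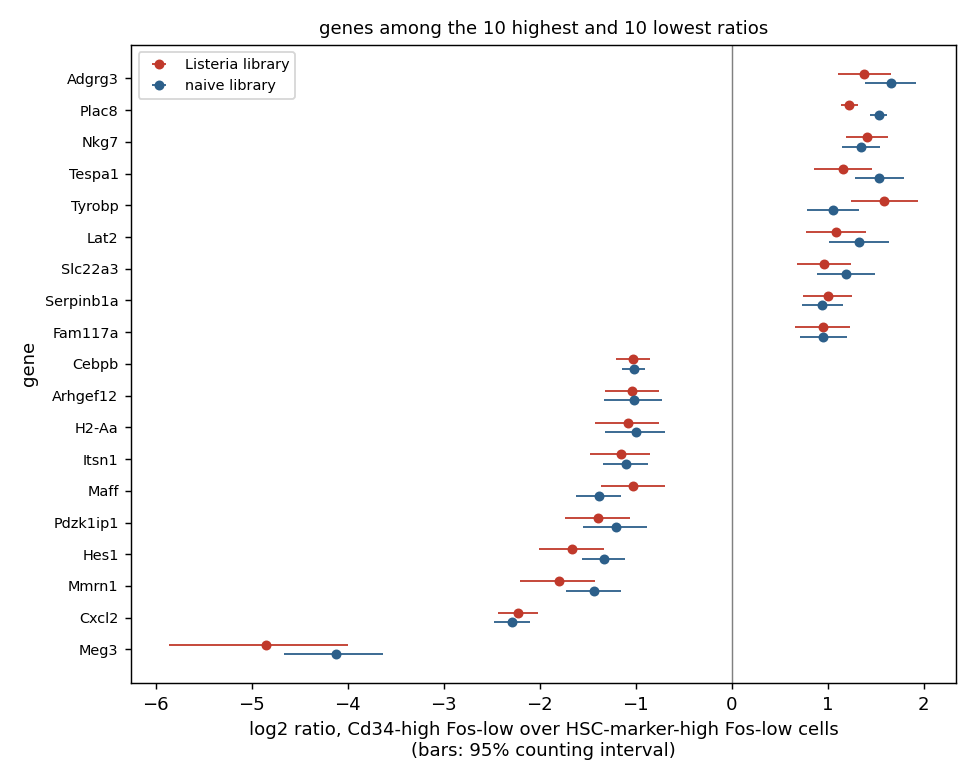
Log2 ratio of Cd34-high Fos-low over HSC-marker-high Fos-low cells for genes among the 10 highest and 10 lowest, with the Listeria library above the naive library in each row and bars for the 95% counting interval. Tyrobp stands at 1.59 and 1.06, and Meg3 lowest of the genes drawn, at -4.85 and -4.13.

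The limit on Fos split Cd34-high cells unequally in the 2 libraries. Of the Cd34-high cells that met every other limit, 68.7% of 696 in the Listeria library (65.1 to 72.1) and 82.5% of 715 in the naive library (79.5 to 85.2) were Fos-low, which left 218 and 125 Fos-high cells. The limit was set on unthinned counts, and Fos-high cells were deeper, with a median of 7928.5 and 7348 UMIs against 7328 and 6763.5 in members. The part of depth in the ratios was not tested. Among 5844 genes, 249 were over 1.5-fold higher in members than in Fos-high cells in both libraries (4.26%) and 366 lower (6.26%). Here the scaling mattered. TMM factors moved all log2 ratios of members over Fos-high cells by 0.20 in the Listeria and 0.11 in the naive library, which turned the split into 428 higher and 204 lower, so ratios in this comparison are read relative to that shift.

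Fos chose the cells, and the lower genes were led by other immediate early genes. Klf2, a Krüppel-like factor of quiescent lymphocytes, was at 224 and 348 CPM in members, against 1731 and 1503 CPM in Fos-high cells, with log2 ratios of -2.95 and -2.11. Dusp1, a phosphatase that switches off MAP kinases, had -2.93 and -2.10, and Egr1, a zinc finger factor, -2.53 and -1.97. Zfp36, which encodes an mRNA-destabilising protein, had -2.33 and -2.15. Btg2, an antiproliferative gene, had -2.20 and -1.66, Rhob -2.17 and -1.63, and Jun, a partner of Fos, -2.06 and -1.74. Fam111a, Ccl3 and Cdca7 were the others of the 10 lowest. In all, 21 of 40 immediate early genes were lower and 2 higher.

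Of the 7 immediate early genes among the 10 lowest, 6 had a promoter in the RefSeq table, and those with a motif match are shown with Fos because their transcripts were low together with it. Each line is written 5′ to 3′ on the gene's own strand, from 250 bases before to 50 after the RefSeq start, on GRCm38.p6. Capitals mark the cyclic AMP response element (CRE, TGACGTCA), its half-site (TGACG) or the CArG box, the serum response factor motif.
Fos (chr12:85473640-85473939, plus strand): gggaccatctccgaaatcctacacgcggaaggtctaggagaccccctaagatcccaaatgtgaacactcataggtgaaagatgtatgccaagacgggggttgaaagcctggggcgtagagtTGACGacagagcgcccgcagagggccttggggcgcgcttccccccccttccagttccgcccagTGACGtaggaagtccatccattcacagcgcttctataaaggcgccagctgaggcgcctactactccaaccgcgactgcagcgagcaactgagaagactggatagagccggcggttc
Btg2 (chr1:134079106-134079405, minus strand): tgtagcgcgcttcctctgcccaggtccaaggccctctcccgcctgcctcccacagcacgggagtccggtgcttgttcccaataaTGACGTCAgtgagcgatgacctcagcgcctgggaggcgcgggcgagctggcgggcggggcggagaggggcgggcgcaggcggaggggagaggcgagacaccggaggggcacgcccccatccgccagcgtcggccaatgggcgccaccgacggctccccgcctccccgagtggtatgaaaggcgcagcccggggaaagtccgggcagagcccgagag
Dusp1 (chr17:26508423-26508722, minus strand): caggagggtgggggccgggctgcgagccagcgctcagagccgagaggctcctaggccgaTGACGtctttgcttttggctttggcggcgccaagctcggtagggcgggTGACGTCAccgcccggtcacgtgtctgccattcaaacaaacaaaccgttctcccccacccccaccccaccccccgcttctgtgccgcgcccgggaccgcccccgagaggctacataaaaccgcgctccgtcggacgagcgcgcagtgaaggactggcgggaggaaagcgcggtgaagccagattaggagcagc
Klf2 (chr8:72318812-72319111, plus strand): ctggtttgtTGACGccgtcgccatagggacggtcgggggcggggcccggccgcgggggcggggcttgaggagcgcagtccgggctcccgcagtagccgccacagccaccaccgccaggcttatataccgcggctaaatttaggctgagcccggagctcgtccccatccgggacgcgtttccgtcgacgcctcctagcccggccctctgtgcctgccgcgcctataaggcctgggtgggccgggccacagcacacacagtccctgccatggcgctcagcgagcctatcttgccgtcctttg
Zfp36 (chr7:28379179-28379478, minus strand): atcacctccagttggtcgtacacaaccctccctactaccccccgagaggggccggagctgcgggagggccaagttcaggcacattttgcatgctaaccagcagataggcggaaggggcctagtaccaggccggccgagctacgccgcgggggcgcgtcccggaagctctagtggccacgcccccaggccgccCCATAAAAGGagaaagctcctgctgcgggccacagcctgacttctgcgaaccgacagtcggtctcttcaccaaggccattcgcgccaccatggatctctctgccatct
The full CRE stood 166 bases before the start of Btg2 and 143 before that of Dusp1, and the CArG box 58 before that of Zfp36. Fos held half-sites 129 and 66 bases before its start, and Klf2 one at 241. On both strands, with the half-site counted also inside a full CRE, the CRE was found in 2.05% of 26742 genes with a promoter and in 4 of 34 immediate early genes, the CArG box in 1.82% and 3 of 34, and the half-site in 23.2% and 18 of 34. The AP-1 motif (TGAGTCA, read on both strands) was in 5.94% of genes and in 0 of 34. Jun and Rhob held none of these letters in this window. The half-site was searched after these sequences had been read, and a match is a description of letters only.

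Apart from neutrophil genes, the genes higher in Fos-low than in Fos-high cells were led by N4bp3. This gene, which encodes a cytoskeletal adaptor of the NEDD4 pathway, was at 74.1 and 110 CPM in members and 15.9 and 24.5 CPM in Fos-high cells, with log2 ratios of 2.22 and 2.16. Anxa2, a membrane-binding annexin, had 1.52 and 1.17, and Luzp1, a cytoskeletal regulator, 1.52 and 1.58. Cish, a feedback inhibitor induced by cytokine receptors through STAT5, had 1.39 and 1.27. Cenpa, the centromeric histone H3 variant, had 1.32 and 1.46, and Ireb2, an iron sensor, 1.17 and 1.34. The neutrophil genes Camp, Ngp, S100a9 and S100a8 completed the 10 highest. The single neutrophil-gene-rich cell of each library held between 75.4% and 95.6% of the UMIs of each of them, and without it the smaller ratio of Camp was -0.34 and that of Ngp -1.78. Of 21 NF-kB and inflammation genes 6 were higher and 3 lower, and the 6 held the subunit genes Nfkb1, Nfkb2, Rela and Relb. Nfkb2 had 1.73 and 1.01.

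DNA replication genes were lower in Fos-low than in Fos-high cells. Of 31 S phase genes measured, 13 were lower in both libraries and none higher, with a median log2 ratio of -0.52, against 0 over all genes. For such medians each gene had the smaller ratio of the 2 libraries, or 0 where they differed in sign. Hells, a chromatin remodeller, had -1.35 and -1.29, and the helicase subunit gene Mcm4 -1.08 and -1.22. Myc, a driver of growth, was at 18.1 and 23.5 CPM in members and 75.5 and 57.6 CPM in Fos-high cells. Lyl1 (-1.43 and -1.71), Nfe2 (-1.33 and -1.02) and Cd48 (-1.57 and -1.03) were lower in members as well.

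The sum of the other immediate early genes was mostly higher in groups of cells with more Fos UMIs, below the limit as above it, though not for each gene. In members with no Fos UMI the 44 genes summed to 10365 CPM in the Listeria and 16942 CPM in the naive library. With 4 Fos UMIs, just inside the limit, they summed to 24949 CPM in 15 Listeria cells and 29172 CPM in 38 naive cells, and with 5 to 9, just outside, to 25581 and 28007 CPM. Atf3 had no steady course in the Listeria library, with 273 CPM in cells without Fos and 84.1 CPM in the 15 cells with 4 Fos UMIs. It was at 367 CPM in 64 cells with 10 to 19 Fos UMIs and 265 CPM in those with 20 or more. Cdkn1a was at 234 and 387 CPM in cells without Fos and 115 and 297 CPM in those with 20 or more Fos UMIs. Ctla2a, like Cdkn1a, was lower in cells with many Fos UMIs. It was at 5927 and 5786 CPM in cells without Fos and 2376 and 2893 CPM in cells with 20 or more Fos UMIs. N4bp3 was at 74.9 CPM and the nuclear lamina gene Lmna at 287 CPM in Listeria cells without Fos, and Lmna fell to 38.9 CPM at 20 or more Fos UMIs in that library.

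**Figure D2:**
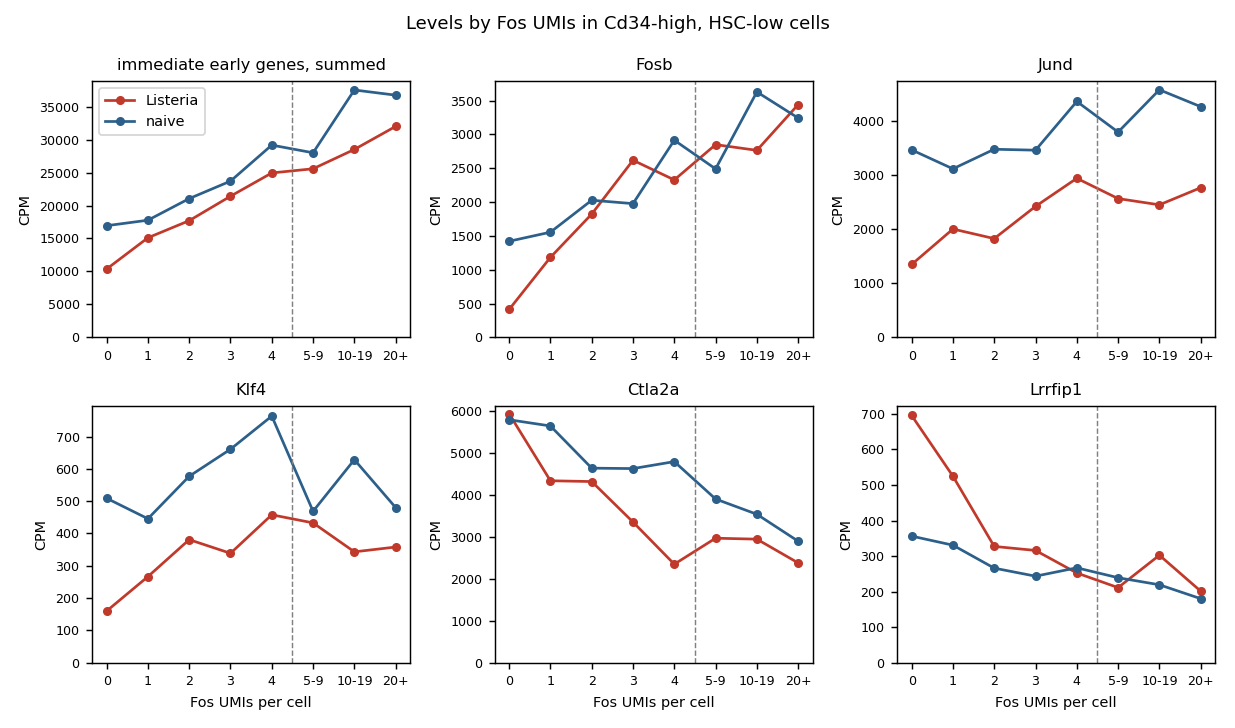
Levels in CPM against Fos UMIs per cell in Cd34-high, HSC-low cells, with 1 point per group of cells in each library and a dashed line at the limit of 5 that separates Fos-low from Fos-high cells. In all 8 groups of cells the summed immediate early genes stood lower in Listeria than in naive cells, and Ctla2a was lower at high than at low Fos in both.

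Between the libraries, Cd34-high Fos-low cells of the Listeria library had fewer transcripts of 19 of 40 immediate early genes and more of 11 of 31 DNA replication genes. Single genes such as Cox6a1, Lgals3 and S100a4 stood higher, without their lists. Among 5883 genes with 20 CPM or more in either library, 401 were over 1.5-fold higher in the Listeria library (6.82%) and 224 over 1.5-fold lower (3.81%), with a median log2 ratio of 0.09. Member depth differed in the same comparison, 7328 against 6763.5 median UMIs, as did the share of mitochondrial UMIs, 3.86% against 4.51%; their part in the ratios was not tested.

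Of 40 immediate early genes, 19 fell below the limit in Listeria members and none rose above it, with a median log2 ratio of -0.51, where all genes had 0.09. Over the alternatives tried this median ran from -0.60 to -0.25. Klf4, a Krüppel-like factor that restrains proliferation (chr4:55527143-55532466, minus strand, GRCm38), had the lowest ratio of the genes ranked. It was at 214 CPM (200 to 230) in the Listeria and 530 CPM (507 to 552) in the naive library, a log2 ratio of -1.30 (-1.42 to -1.19). The count intervals did not overlap, and single cells held at most 2.40% and 1.62% of its UMIs. Rgcc, a regulator of cell cycle kinases, was at 174 and 423 CPM, a log2 ratio of -1.28. Jund, an AP-1 subunit, was at 1614 and 3426 CPM, -1.09, and Fosb, the closest relative of Fos, at 842 and 1678 CPM. Fosb was read in 54.2% of Listeria and 88.5% of naive members after thinning, against 50.1% and 55.7% of B-lineage cells. Klf10, a gene induced by TGF-beta, was at 99.5 and 196 CPM. Nr4a1, Atf3 and Btg2 had log2 ratios of -0.81, -0.81 and -0.90, whereas Zfp36 was at 156 and 159 CPM, with a ratio of -0.03.

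Fos chose the cells, and its level in members, 79.8 CPM in the Listeria and 143 CPM in the naive library, is a description. Over all Cd34-high cells the Listeria library had the larger share of Fos-high cells, 218 of 696 against 125 of 715. Cells with no Fos UMI, 317 and 278, are also chosen by Fos, so their levels cannot show what the limit on Fos adds to the difference. In them Fosb was at 412 CPM in the Listeria and 1420 CPM in the naive library, Jund at 1345 and 3459 CPM, and Klf4 at 160 and 509 CPM. Klf2 was at 51.2 and 188 CPM in them, but at 2030 and 1639 CPM in cells with 20 or more Fos UMIs. The limit left out a larger share of Cd34-high cells in the Listeria library, and its part in the difference was not tested. Among Fos-high cells the medians lay closer, with 8 of 39 immediate early genes below the limit in Listeria cells (9.18% of genes were higher and 3.88% lower there) and a list median of -0.17. Fosb had 0.04 in those cells.

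Among cyclins, kinases and inhibitors, 4 of 14 were lower in the Listeria library and none was higher, with a median of -0.13. The kinase inhibitor gene Cdkn1a was at 223 and 397 CPM, a log2 ratio of -0.83 (-0.96 to -0.71), and Btg2 at 128 and 240 CPM. With Rgcc and the cyclin gene Ccnd1 (28.7 and 49.7 CPM, -0.79) they were the 4 that passed. Ccnd1, unlike the other 3, promotes entry into the cycle. Cdkn1a, Btg2 and Rgcc also belong to the 44 immediate early genes.

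Of 31 S phase genes 11 passed upwards in the Listeria library and none downwards, with a median of 0.39. Uhrf1, which keeps DNA methylation through replication, had a log2 ratio of 1.29 (0.81 to 1.78). Clspn, a checkpoint adaptor at forks, had 1.09, the DNA ligase gene Lig1 0.96 and the helicase subunit gene Mcm6 0.95 (99.2 and 51.4 CPM). Mcm2, Mcm4 and Mcm5 had 0.74, 0.72 and 0.73, while Pcna, the sliding clamp, was at 84.9 and 87.8 CPM. When each cell counted equally rather than by its depth, the S phase median was 0.22. Of 21 G2 and M phase genes 4 were higher, none lower, with a median of 0.11. Mki67, a protein of dividing cells, was at 98.4 and 36.9 CPM, 1.41 (1.14 to 1.70), Top2a, which untangles DNA, at 84.1 and 46.0 CPM, and Cks1b and Cenpf had 0.74 and 0.65. The histone gene Hist1h1b had 1.27, but 1 cell held 20.5% of its UMIs in the Listeria library. Tyms, with 21.9 and 13.7 CPM, had -0.047 when the gate was applied to thinned cells.

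Cells with 3 or more UMIs of 10 genes of dividing cells made up 4.81% of Listeria members (23 of 478, 3.07 to 7.13) and 2.03% of naive members (12 of 590, 1.06 to 3.53). The intervals overlapped. Both shares lay under those of Fos-high cells, 7.80% (17 of 218, 4.61 to 12.2) and 5.6% (7 of 125, 2.28 to 11.2). In each library those intervals overlapped the interval of members. HSC-marker-high cells had 2.57% and 1.97%. A looser count, 2 or more UMIs of the S phase list after thinning, took in 81.4% and 78.0% of members, and of the G2 and M phase list 94.1% in each library. Those shares were near their ceiling and separated little.

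**Figure D3:**
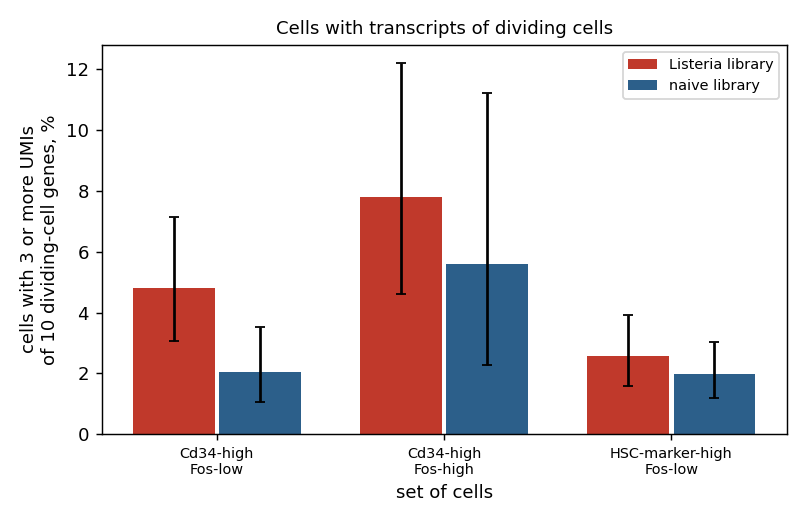
Share of cells with 3 or more UMIs of 10 genes of dividing cells, in percent, after thinning to 2500 UMIs per cell, with the Listeria bar left of the naive bar and 95% exact intervals. Cd34-high Fos-low cells stand at 4.81% and 2.03%.

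Of 20 MYC target and growth genes 5 were higher and none lower, with a median of 0.36. The mitochondrial chaperonin gene Hspd1 was at 261 and 161 CPM, 0.70, the spermidine synthase gene Srm had 0.72 and the nucleoside kinase gene Nme1 0.61. Myc itself was at 18.1 and 23.5 CPM. Aars, the alanyl-tRNA synthetase gene, was among the 12 highest ranked, at 60.6 and 22.5 CPM. The glycolytic gene Gapdh was at 989 and 585 CPM, 0.76, and Ldhb, which converts lactate to pyruvate, at 28.7 and 56.7 CPM, -0.99.

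Lgals3, the galectin-3 gene (chr14:47367751-47386160, plus strand), was at 79.2 CPM (70.4 to 88.8) in the Listeria and 27.1 CPM (22.3 to 32.7) in the naive library, a log2 ratio of 1.54 (1.22 to 1.87). It was read in 16.3% of Listeria and 4.92% of naive members, against 2.14% and 0.276% of B-lineage cells. S100a4, a calcium-binding regulator of motility, was at 91.4 and 31.8 CPM, 1.52, and Anxa2 at 141 and 60.2 CPM, 1.23. Epb41l2, a linker of membrane and actin, had 1.29, and Lrrfip1, an actin- and nucleic acid-binding protein gene, 0.90 (603 and 323 CPM). Plp2, a membrane protein gene, had 1.26. These were single genes and not their lists: S100, annexin and galectin genes had 3 of 19 higher, 2 lower and a median of -0.04, and the 2 lower were neutrophil genes. Cytoskeleton and adhesion genes had 2 of 27 higher, 1 lower and a median of 0.014. The thymosin gene Tmsb10, which binds actin monomers, was lower, at 613 and 871 CPM. Lgals3 and Anxa2 were not in the same cells beyond what their shares give in the Listeria library, with 23 cells holding both where the product of shares is 20.9, against 11 cells and 3.44 in the naive library.

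Cox6a1, a subunit of cytochrome c oxidase, had the highest ratio of the genes ranked (chr5:115345642-115348981, minus strand), at 144 CPM (132 to 157) in the Listeria and 43.8 CPM (37.6 to 50.7) in the naive library, 1.72 (1.47 to 1.97). Cox7b had 1.53, the ATP synthase subunit gene Atp5o (ENSMUSG00000022956) 1.40 and Ndufb10 1.00. They were 4 of the 6 oxidative phosphorylation genes that passed upwards among 74 measured. None passed downwards, and the list's median of 0.01 turned to -0.022 with TMM factors. The symbol Atp5o stands for 2 gene identifiers in the files. Tmem258, a subunit of the oligosaccharyltransferase, was at 70.6 and 23.7 CPM, 1.57. Ribosomal protein genes had no member past the limit and a median of -0.04.

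**Figure D4:**
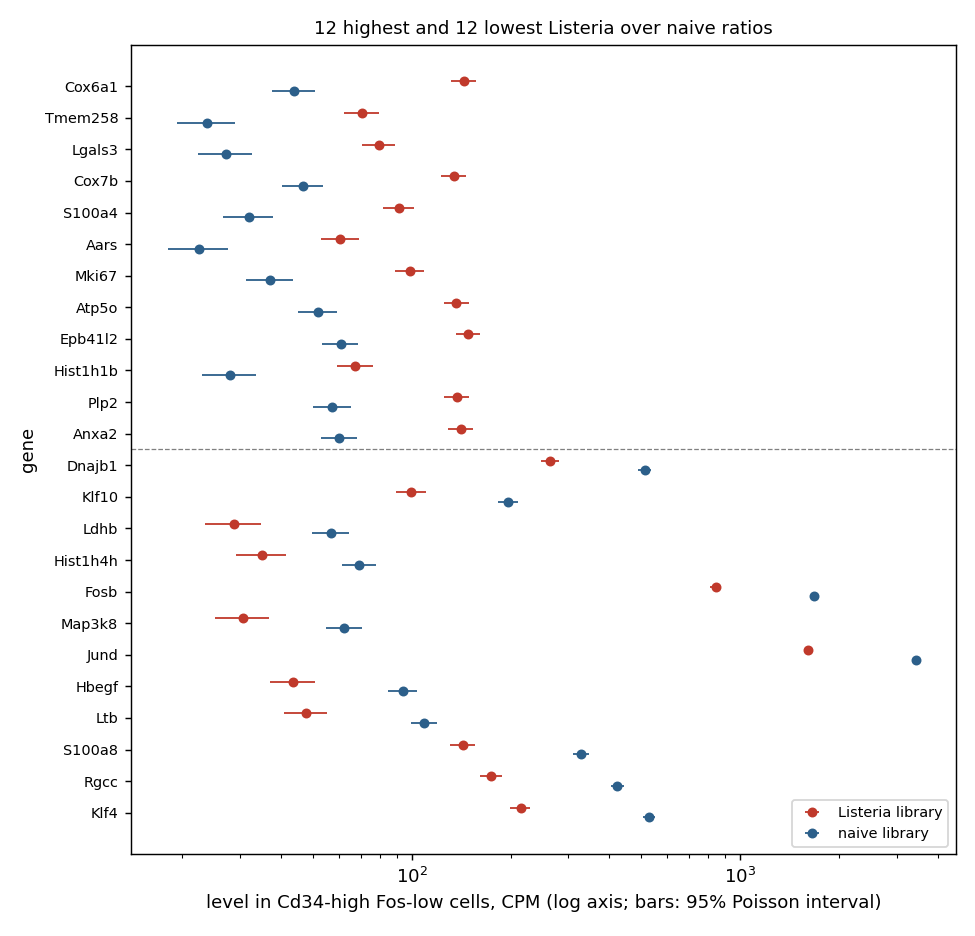
Level in CPM, on a log axis, of the 12 genes with the highest and the 12 with the lowest Listeria over naive ratio in Cd34-high Fos-low cells, with the Listeria point above the naive point in each row and bars for the 95% Poisson interval. Cox6a1 stands at 144 and 43.8 CPM and Klf4 at 214 and 530 CPM.

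Stem and progenitor transcription factors had 4 of 31 lower and none higher, with a median of -0.29, which was 0.024 when the gate was applied to thinned cells. Cebpb, an emergency granulopoiesis factor, was at 95.2 and 178 CPM, -0.90, Sox4, a factor of lymphoid and stem cells, at 303 and 474 CPM, -0.64, and Nkx2-3 and Erg had -0.84 and -0.61. Lymphoid priming genes had 3 of 13 lower and none higher. Flt3 was at 57.6 and 93.9 CPM, -0.71 (-0.95 to -0.46). Ighm, the antibody heavy chain gene that is also read from free RNA, was at 23.5 and 107 CPM, with 1637 and 2641 CPM in barcodes of 1 to 50 UMIs, and B-lineage genes moved the same way at 16.5 and 58.2 CPM. Its log2 ratio was -2.16, and -3.81 after the free RNA profile, estimated at 1.16% and 1.38% of member UMIs, had been subtracted. Ltb, a cytokine gene of lymphoid cells, had -1.20, and the stem cell antigen gene Ly6a -1.21 (14.1 and 32.5 CPM). Hbegf, a growth factor gene, and Map3k8, a kinase of the inflammatory MAP kinase pathway, had -1.11 and -1.02.

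Interferon and antigen presentation genes showed few changes past the limit. Of 16 type I interferon response genes 1 was lower, Ifitm1 at 295 and 502 CPM, and none was higher, with a median of -0.23. Interferon gamma targets had 1 higher (Gbp3, 0.75) and 2 lower (Gbp2 at -0.87, Irf1 at -0.61) of 9. MHC class II genes had 1 of 6 lower, H2-Oa at -0.90, and MHC class I genes 1 of 19 higher, H2-Q6 at 0.62, one of several near-identical genes whose reads may be shared. NF-kB and inflammation genes had Traf1 higher (0.79) and Tnfaip3, a brake on NF-kB, lower (75.2 and 131 CPM, -0.80). Csf2rb, the shared receptor chain for IL-3 and GM-CSF, was at 34.3 and 15.2 CPM, 1.18. Of the Notch, Id and Hes genes 3 of 8 were lower, Id3 at -1.14, Hes1 at -1.07 and Smad7 at -0.74. S100a8 was also among the 12 lowest, at 143 and 328 CPM, with 75.4% and 86.9% of its UMIs in 1 cell, and its ratio was 2.32 when the gate was applied to thinned cells.

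The same ratio was taken in other sets of cells of the 2 libraries, side by side and without a test of the difference. In HSC-marker-high Fos-low cells 7.93% of genes were higher and 2.96% lower, and in all other kept cells 2.55% and 3.39%. Immediate early genes had a median of -0.63 with 22 of 39 lower in HSC-marker-high cells, and -0.27 with 8 of 41 lower and 1 higher in all other cells. Klf4 had -1.30 in both HSC-marker-high and Cd34-high Fos-low cells. S phase genes had 0.22 in HSC-marker-high and in Fos-high cells, with 3 of 25 and 4 of 32 higher, and -0.35 in all other cells. G2 and M phase genes had a median of 0.44 with 11 of 27 higher in Fos-high cells, against 0.11 with 4 of 21 higher in Cd34-high Fos-low cells, 0.12 with 1 of 19 higher in HSC-marker-high cells, and -0.50 with 17 of 42 lower in all other cells. The 12 B-lineage genes were all lower in those other cells of the Listeria library, with a median of -1.36. Mki67 had 0.14 in HSC-marker-high cells and 0.41 in Fos-high cells. Lgals3 had 1.95 and Epb41l2 1.55 in HSC-marker-high cells, whereas in Fos-high cells Lgals3 had 0.82 and Epb41l2 -0.30. That 0.82 rests on few cells, since without thinning Lgals3 was read in 7 of 218 Listeria and 2 of 125 naive Fos-high cells. Cd74, the invariant chain of MHC class II, had -0.36 in Cd34-high Fos-low cells and 0.51 in HSC-marker-high cells.

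**Figure D5:**
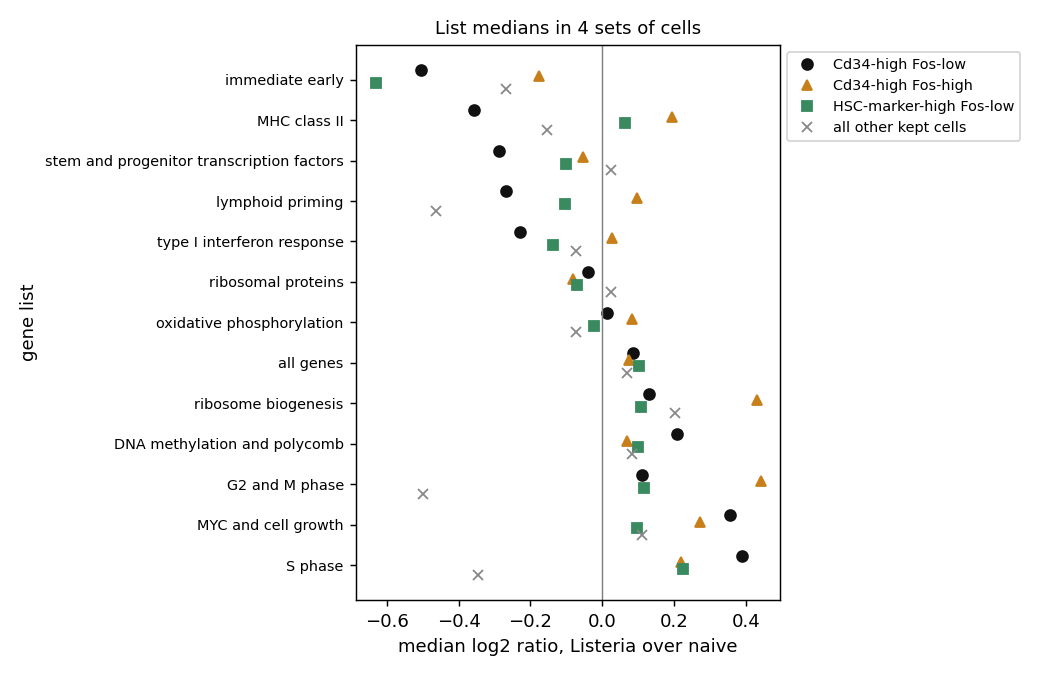
Median log2 ratio, Listeria over naive, of 12 gene lists and of all genes in 4 sets of cells, with symbols for the sets. Immediate early genes lie at -0.51 in Cd34-high Fos-low cells and S phase genes at 0.39, against -0.27 and -0.35 in all other kept cells.

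By a measure not adjusted for gene level, Cd34-high Fos-low cells varied among themselves in a few genes far more than in most. Among 2597 genes, the variance of UMIs over cells at equal depth, divided by the mean, had a median of 1.06 in the Listeria and 1.05 in the naive library. Some genes high in this measure were abundant, such as Malat1 (19299 and 23053 CPM) and Ctla2a (5252 and 5439 CPM). The part of their level in it was not tested. By the smaller value of both libraries, the 4 neutrophil genes of the single cells and the nuclear RNA Malat1 stood first, and then Jun (6.79 and 5.97), Cxcl10 (6.26 and 5.79), the endoplasmic reticulum chaperone gene Hspa5 (4.54 and 5.56), Ctla2a (5.66 and 4.36), Atf3 (5.41 and 4.06) and Fosb (4.79 and 3.53). Cxcl10, a chemokine induced by interferon, was read in 24 Listeria and 28 naive members after thinning, with 21.6% and 44.7% of all its UMIs in 1 cell. Klf4 and Atf3 were read together in 55 Listeria cells, where the product of their shares is 46.8, and in 175 naive cells, where it is 168.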

How the data were processed

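Each library was deposited as a matrix of UMI counts per gene and cell barcode, with its barcode and gene lists. Per the submitters' processing notes the authors used Cell Ranger 3.0.2 and mm10. Per the labels' protocols the libraries were made with a droplet kit that counts 3′ ends. Filters on barcodes are not given in the sources used here, and the deposited counts held 6794880 barcodes per library. Cells were barcodes with 2500 or more UMIs, 500 or more genes and at most 10% mitochondrial UMIs.

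UMIs of the cells of each set were summed and scaled to CPM (UMIs per 1e+06). With 1 library per group no test was made. Poisson, binomial (Clopper-Pearson) and ratio intervals are exact at 95% and cover counting error only. Counts past 1.5-fold and list medians used genes at 20 CPM or more, with 0.5 CPM added. Genes are named where they were among the 12 (libraries) or 10 (sets of cells) highest or lowest at 50 CPM and 100 UMIs or more, or among the 4 members of a list farthest from 0; mitochondrial, ribosomal protein, sex-linked, antibody, unnamed and gate genes were left out of the ranking. Other genes named in the text, as with Pcna, Zfp36, Myc, Cdk6 and the members of short list counts, were chosen after their values were seen. A gene that met this rule is not reported here. The members of the gate and all lists were chosen with earlier results of these data known.

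Shares of cells with a UMI were taken after thinning each cell to 2500 UMIs, seeded, and set beside those of 421 Listeria and 1448 naive B-lineage cells. Those cells had transcripts of some of these genes themselves, with Plac8 read in 59.9% and 64.1% of them. Their shares are therefore another cell type's values and not a floor of stray reads. No doublets were removed: Scrublet (scanpy 1.11.5) called 1 Listeria and 2 naive cells and is taken not to have worked. Free RNA was profiled in barcodes of 1 to 50 UMIs. Counts were simulated for the 5883 genes of the Listeria over naive comparison in members. They had Poisson error only, without added variation between cells or between libraries. Of genes raised 2-fold 100% were past the limit, and of those lowered 2-fold 98%. At 1.5-fold it was 40% and 44%, and 0.246% of unchanged genes. Those shares cover counting error only and give no rate of false calls in the data. Alternatives used edgeR 4.0.16 and DESeq2 1.42.0 for scaling only. Other tools were Python 3.11.15, numpy 2.4.6, scipy 1.17.1 and R 4.3.3.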

Additional observations from a re-analysis of the deposited data

Results flagged for a closer look

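Several genes of dividing cells had Listeria over naive log2 ratios of opposite sign in Cd34-high Fos-low cells and in all other kept cells, past a set fold limit in each with counting intervals that left out 0. The difference between the sets was not tested, since each group has 1 library. Mki67 had 1.41 in Cd34-high Fos-low cells and -0.65 in all other cells, and Uhrf1 had 1.29 and -0.68. Hist1h1b had 1.27 and -1.02, Clspn 1.09 and -0.60, and Top2a 0.87 and -0.41. Cks1b had 0.74 and -0.33, Tyms 0.68 and -0.82, and Cenpf 0.65 and -0.66. The S phase list median was 0.39 in Cd34-high Fos-low cells and -0.35 in all other cells. It was 0.22 in Fos-high and 0.22 in HSC-marker-high cells. The other cells hold every remaining cell type. Among them 12 of 12 B-lineage genes were lower in the Listeria library, with a median of -1.36. B-lineage cells were 421 of 4839 Listeria and 1448 of 6375 naive cells, and 78.9% and 74.2% of them had an Mki67 UMI after thinning. The part of this mix in the opposite signs was not tested.

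Tie1, an endothelial and stem cell receptor gene, had -0.42 in Cd34-high Fos-low cells and 0.34 in all other cells. Egfl7, a secreted vascular gene, had -0.34 in Cd34-high Fos-low cells and 0.64 in Fos-high cells. Cd74 had -0.36 in Cd34-high Fos-low cells and 0.51 in HSC-marker-high Fos-low cells. These differences were not tested either.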

How the results depend on the processing

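No paired analysis was possible because each group has 1 library. Of the shares, counts and list medians recomputed, 445 values stayed within the limits set and 58 moved; of single genes 1822 stayed, 183 moved and 11 reversed; the cause was not tested. The shares of cells in the gate (9.88% Listeria, 9.25% naive) were 6.12% and 5.35% with the gate on thinned cells, 6.10% and 5.30% with 3 or more Cd34 UMIs, 8.97% and 8% with Fos under 3, 6.01% and 5.38% with HSC genes under 3, and 6.55% and 4.36% without any Fos. With the gate on thinned cells the list medians were -0.25 for immediate early genes and 0.024 for transcription factors. Oxidative phosphorylation had -0.022 with TMM and -0.038 with median-ratio factors, ribosomal proteins -0.092 with median-ratio factors, and S phase 0.22 with each cell weighted equally. Against HSC-marker-high cells the counts (39 higher, 131 lower) were 184 and 311 with the gate on thinned cells, 22 and 49 at 50 CPM, 91 and 386 at 5 CPM, 202 and 352 at a lower fold limit and 13 and 42 at 2-fold, with 63 higher where HSC genes were under 3. Against Fos-high cells (249 and 366) they were 428 and 204 with TMM, 433 and 198 with median-ratio factors, 128 and 134 at 50 CPM, 397 and 865 at 5 CPM, 688 and 959 at a lower fold limit and 43 and 51 at 2-fold, with 600 lower for members without Fos. Listeria over naive (401 and 224) gave 163 and 78 at 50 CPM, 822 and 721 at 5 CPM, 1351 and 700 at a lower fold limit, 54 and 36 at 2-fold and 630 and 382 without Fos. S100a8 turned to 2.32 with the gate on thinned cells and 2.22 without Fos, and Tyms to -0.047 with the gate on thinned cells. Against Fos-high cells Camp turned to -0.51 (thinned gate), -0.93 (3 or more Cd34 UMIs) and -0.34 (without the neutrophil-gene cell), Ngp to -0.84, -2.09 and -1.78, and to -1.33 without its highest cell, and S100a9 to -0.17 with 3 or more Cd34 UMIs. Cells with 2 or more S phase UMIs were 98.7% and 97.8% without thinning and 93.2% and 92.3% at 4000 UMIs, and G2 and M phase 100% and 100%, and 99.2% and 99.6%. The settings with no Fos, without the neutrophil-gene cell, without shared barcodes and without a gene's highest cell were chosen after seeing the data. Leaving out the shared barcodes moved none of the shares, counts or list medians past those limits. At this depth a gene near 20 CPM rests on few UMIs per library.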
